A study of Mus musculus with 11 samples.

Results

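Pyrimidine breakdown was followed through 8 genes in the nucleus accumbens of Rarb-null mice. Rarb encodes the retinoic acid receptor beta, a nuclear receptor that regulates transcription. The list was chosen by the strong fall of Upb1 in Rarb-null arrays and filled with the other enzymes of the route: Dpyd, Dpys, Upp1, Upp2, Cda, Tymp and Aldh6a1. A gene counted as measured where a probe set carried its symbol alone, which held for 7 of the 8 listed and for 19938 genes in all. The probe set of Tymp is annotated to a second gene as well, and Tymp is not analysed here.

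The arrays held RNA from 11 male mice aged 4 to 5 months, 1 mouse to an array: 6 wild-type (WT) mice and 5 RARβ-null mutant mice. All came from crosses of heterozygotes on a mixed C57BL/6J and 129SvEms/j background, WT and mutants being littermates, and none had been used in behavioural tests. The tissue was the nucleus accumbens, the ventral striatum, enriched in its shell and taken with a 0.5 mm punch. Which part of Rarb the mutation removes was not given in the sources used here. The platform was the Affymetrix Mouse Gene 1.0 ST array. Levels are on the log2 scale that robust multi-array analysis (RMA) returns, so a difference of 1 is a 2-fold change. Titles, genotype labels and the series design give 6 WT and 5 mutants, whereas the extraction text gives the numbers the other way round. Rarb read 11.70 to 11.81 in the arrays titled WT and 9.72 to 10.01 in those titled null, so the titles were followed.

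Uracil and thymine are broken down in 3 enzymatic steps. Dihydropyrimidine dehydrogenase (Dpyd) reduces the base, dihydropyrimidinase (Dpys) opens the ring, and beta-ureidopropionase (Upb1) releases beta-alanine from the uracil branch and beta-aminoisobutyrate from the thymine branch. The bases come from nucleosides: cytidine deaminase (Cda) turns cytidine into uridine, the uridine phosphorylases (Upp1 and Upp2) split uridine into uracil and a sugar phosphate, and thymidine phosphorylase (Tymp) does the same for thymidine. Aldh6a1, methylmalonate semialdehyde dehydrogenase, works further down, on the semialdehydes that beta-alanine and beta-aminoisobutyrate give. The route is best known from liver. In brain it matters because beta-alanine acts on glycine and GABA receptors and is the building block of carnosine.

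The promoters of Upb1 and Dpyd, the members with the clearest differences, are shown with that of Rarb because retinoic acid receptors bind DNA at pairs of hexamers. The windows run from 250 bases before to 50 bases after the gene's start (RefSeq, GRCm38.p6), 5′ to 3′ along the gene. Capitals mark every match on either strand to the hexamer AGGTCA or to its variants with GGG, AGT or GGT as the first 3 bases. Upb1 lies on the plus strand (chr10:75406661-75406960), Dpyd on the plus strand (chr3:118561930-118562229) and Rarb on the minus strand (chr14:16575427-16575726).
Upb1: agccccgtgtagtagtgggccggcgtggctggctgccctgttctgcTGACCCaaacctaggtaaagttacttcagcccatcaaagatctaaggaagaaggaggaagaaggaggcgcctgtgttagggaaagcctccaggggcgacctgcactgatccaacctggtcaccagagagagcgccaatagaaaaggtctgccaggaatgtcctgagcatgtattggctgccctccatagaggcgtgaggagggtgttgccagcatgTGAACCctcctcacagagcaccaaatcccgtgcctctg
Dpyd: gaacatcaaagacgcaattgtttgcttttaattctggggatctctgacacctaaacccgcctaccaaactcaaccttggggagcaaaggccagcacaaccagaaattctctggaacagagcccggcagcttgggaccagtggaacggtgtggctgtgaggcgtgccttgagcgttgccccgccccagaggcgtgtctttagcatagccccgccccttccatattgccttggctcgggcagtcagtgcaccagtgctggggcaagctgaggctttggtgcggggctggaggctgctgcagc
Rarb: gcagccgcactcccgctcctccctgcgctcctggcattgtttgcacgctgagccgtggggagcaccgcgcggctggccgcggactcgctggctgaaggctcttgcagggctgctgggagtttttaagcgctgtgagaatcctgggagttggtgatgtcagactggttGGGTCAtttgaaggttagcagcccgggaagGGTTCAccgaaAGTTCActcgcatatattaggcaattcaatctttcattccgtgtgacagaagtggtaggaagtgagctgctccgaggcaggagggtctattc

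The Upb1 window held 2 hexamers, both on the strand opposite to the gene, at positions -204 (GGGTCA) and 12 (GGTTCA) from the start. The Dpyd window held 0. Among 32851 windows of this length, 43.7% held at least 1 of the hexamers and 13.1% held 2 or more. Rarb held 3, of which GGTTCA and AGTTCA stood in the same direction with 5 bases between them, the spacing of the retinoic acid response element for which this promoter is known. Such a pair with 5 bases between was present in 0.0974% of all windows, with 2 bases in 0.268% and with 1 base in 0.222%. The 11 windows of the 7 member symbols in the RefSeq table, Tymp included, held 0 pairs of these spacings, and 5 of the 11 held a hexamer. Dpys had no entry. A match to these letters is a description of the sequence and not a binding site.

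Upb1 was lower in every Rarb-null array than in any WT array. The 6 WT arrays ran from 8.32 to 8.74 with a median of 8.53, and the 5 Rarb-null arrays read 7.29, 7.26, 7.39, 7.24 and 7.27. The groups were 0.93 apart at their nearest arrays, and the WT arrays were the more spread (8.53 ± 0.14, SD, n = 6, against 7.29 ± 0.06, SD, n = 5). The difference, Rarb-null minus WT, was -1.24 (SE 0.060 of the limma fit), a 2.37-fold lower level, and 11963 genes held 12 falls of at least this size, its own included. It is given without a test because it chose the list. In bulk tissue, fewer cells that hold the transcript and less transcript per cell cannot be told apart.

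**Figure D1:**
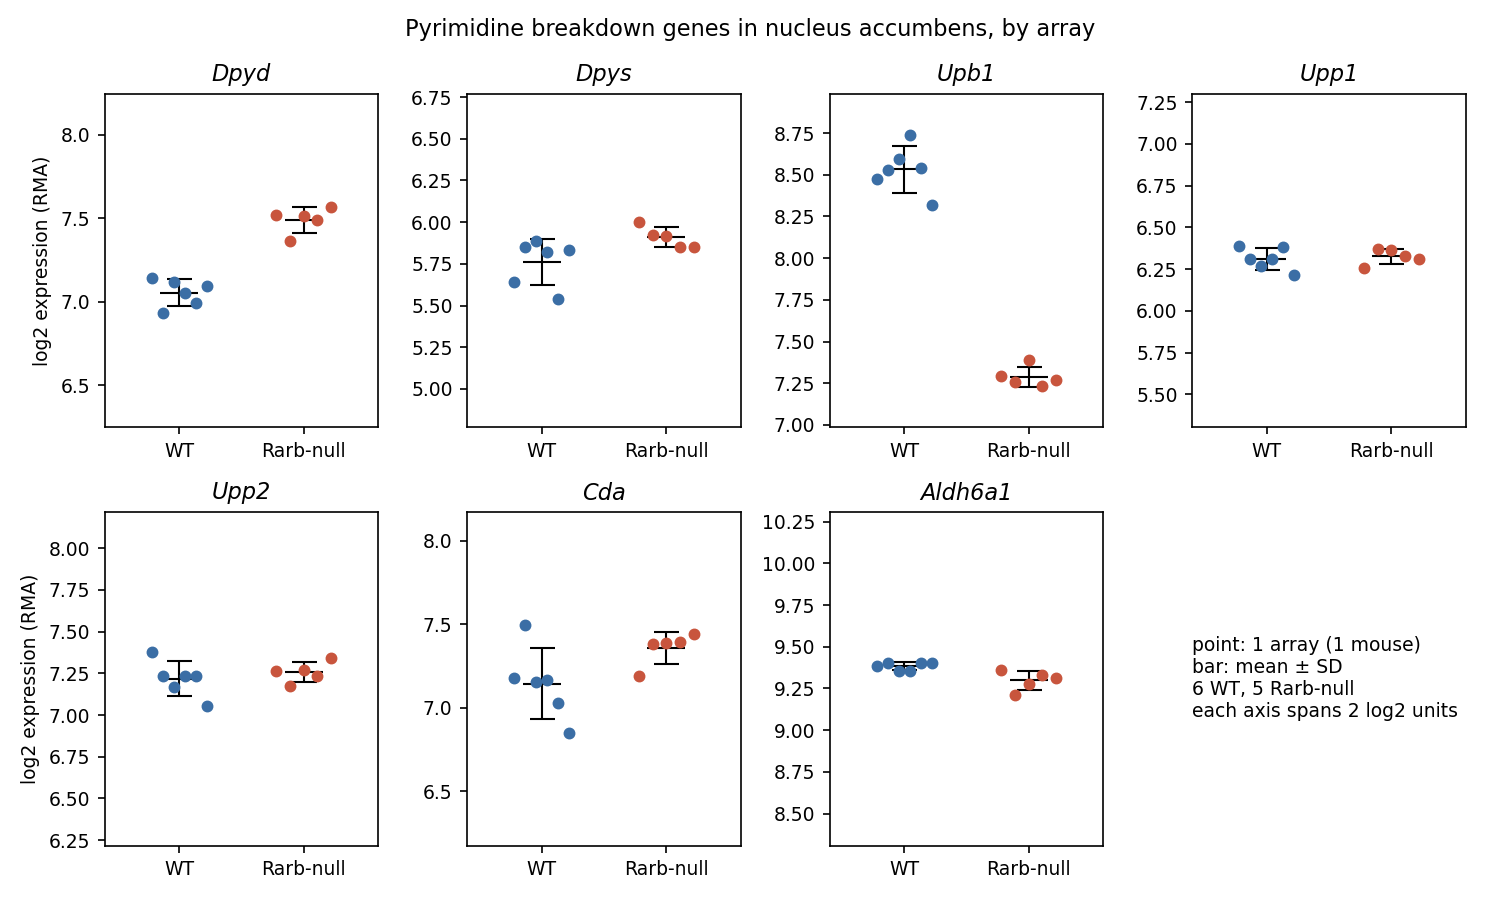
Log2 expression after RMA of the 7 measured genes, with a point for each array, the mean and SD as bars, and 6 WT (blue) and 5 Rarb-null (red) arrays. Every axis spans 2 log2 units around its own centre, so steps can be compared between panels but heights cannot; Upb1 and Dpyd separate the genotypes, in opposite directions.

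Dpyd, the gene of the first and rate-limiting step, went the other way. It ran from 6.93 to 7.14 in WT arrays with a median of 7.08, and read 7.52, 7.36, 7.51, 7.49 and 7.57 in Rarb-null arrays. All null arrays thus lay above all WT arrays, with a gap of 0.22. The rise was 0.44 (SE 0.046), or 1.35-fold, with a Benjamini-Hochberg adjusted p of 2.79e-05 in the limma fit over all 11963 genes tested. Both group means (7.06 ± 0.08, SD, n = 6, and 7.49 ± 0.08, SD, n = 5) were above the filter on dim genes at 6.99. The rise remained past the threshold under the 21 other settings in which Dpyd could be tested (0.40 to 0.47, adjusted p 4.2e-06 to 0.00121).

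Of the 7 other genes on the list, 4 were bright enough to be tested, and Dpyd was the 1 that passed an adjusted p of 0.05. Over all 11963 genes 19.6% passed, 7.56% as higher and 12% as lower in Rarb-null arrays. WT and Rarb-null arrays had no range in common for 11.2% of all genes, and of the 5 tested members this held for Upb1 and Dpyd. Because the list was built around Upb1 in this same contrast, its counts are descriptions, and an adjusted p gives the place of a gene in the fit over all genes.

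Dpys, the gene of the middle step, was dim. It ran from 5.54 to 5.88 in WT arrays with a median of 5.83, and read 6.00, 5.92, 5.92, 5.85 and 5.85 in Rarb-null arrays. The groups overlapped, since WT replicates 1 and 5 were low and the other WT arrays lay near the null arrays. Dpys did not reach the filter, so it was not among the tested genes. In a limma fit of all 19938 genes with no filter, where 12.6% passed, it differed by 0.15 (SE 0.061; Benjamini-Hochberg adjusted p = 0.117). With quantile normalisation repeated it was 0.11 (limma adjusted p = 0.265). With the mean level of oligodendrocyte or cortical neuron markers as a covariate it was 0.075 (adjusted p = 0.565) or 0.22 (adjusted p = 0.213). The median difference over all genes was 0.020 without the filter and -0.017 with it. The 3 consecutive steps of the route read 0.44, 0.15 and -1.24, and the middle one, that of Dpys, did not pass.

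**Figure D2:**
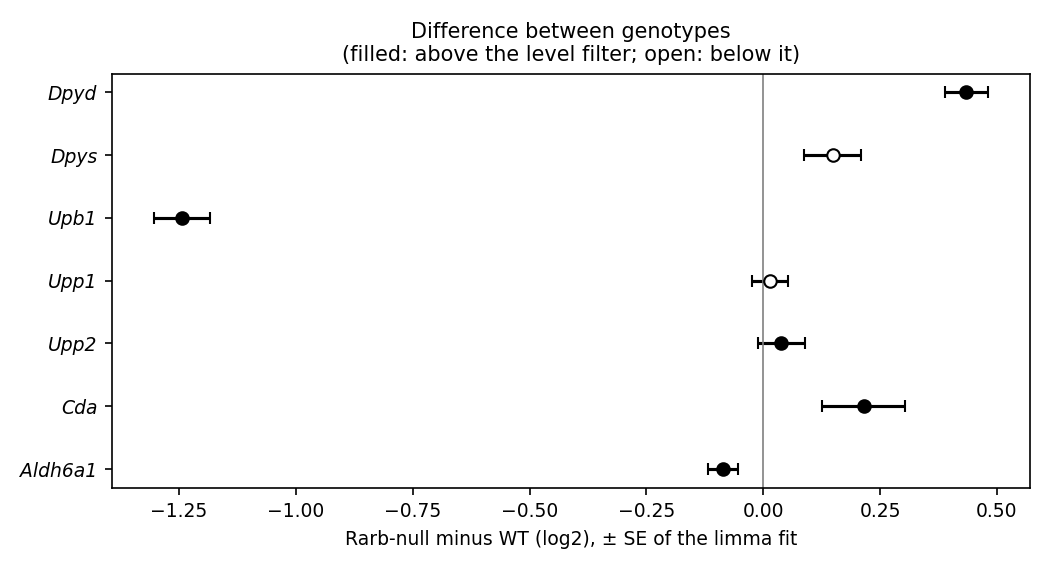
Difference in log2 expression, Rarb-null minus WT, with the SE of the limma fit, for the 7 measured genes from 6 WT and 5 Rarb-null arrays. Upb1 at -1.24 and Dpyd at 0.44 stand farthest from 0; open circles mark Dpys and Upp1, which are below the filter on dim genes and come from the fit without it.

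Of the genes that supply the bases, Cda and Upp2 did not pass, Upp1 was below the filter and Tymp was not analysed. Cda ran from 6.85 to 7.50 in WT arrays with a median of 7.16, and read 7.19, 7.38, 7.39, 7.39 and 7.45 in Rarb-null arrays. It was the most variable member in WT (SD 0.21), where replicate 2 lay above all null arrays. The difference of 0.21 (SE 0.089) did not pass (limma, Benjamini-Hochberg adjusted p = 0.105); without WT replicate 2 it was 0.28 with an adjusted p of 0.0113.

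Upp2 ran from 7.06 to 7.38 in WT arrays and from 7.17 to 7.34 in Rarb-null arrays, a difference of 0.04 (SE 0.050; limma, Benjamini-Hochberg adjusted p = 0.606). Its paralog Upp1 ran from 6.22 to 6.39 and from 6.26 to 6.37, below the filter, with a difference of 0.01 (SE 0.039; adjusted p = 0.825 in the fit without a filter). For both phosphorylases the groups overlapped over most of their range. The sign of these small differences moved with the scaling: with quantile normalisation repeated over all probe sets they were -0.001 for Upp2 and -0.03 for Upp1.

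Aldh6a1, downstream of Upb1, had the least spread of the members in WT (SD 0.02). WT arrays ran from 9.36 to 9.40 with a median of 9.39, and the Rarb-null arrays read 9.36, 9.21, 9.28, 9.33 and 9.31. The null arrays were on the low side, and 1 of them reached the WT range. The difference of -0.09 (SE 0.031) did not pass (limma, Benjamini-Hochberg adjusted p = 0.0698). It was -0.10 with an adjusted p of 0.0467 without Rarb-null replicate 1, and -0.05 (adjusted p = 0.219) after centring, in which the median of the tested genes was set equal on all arrays.

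Within a genotype the members did not follow Upb1 closely. After each genotype's mean was subtracted, the correlation of Upb1 with the others over 11 arrays ran from -0.29 (Aldh6a1) to 0.36 (Cda), with -0.06 for Dpyd. Over all 11 arrays, where the step between genotypes sets most of the correlation, the genes most like Upb1 were Lrrc10b (r = 0.991), Oprk1 (0.991), Spint1 (0.989), Rarb itself (0.988), Kazn (0.986) and Tbc1d8 (0.986). Oprk1 encodes the kappa opioid receptor and Spint1 a protease inhibitor. The most opposed were the cation channel gene Trpc5 (-0.985), the phosphodiesterase gene Pde1a (-0.981), Plxdc2 (-0.980) and Tpbg (-0.979). With genotype means subtracted, the correlation with Upb1 was 0.79 for Kazn, 0.75 for Lrrc10b, 0.62 for Spint1, 0.58 for Tbc1d8, 0.54 for Oprk1 and 0.28 for Rarb. Among the opposed genes it was -0.66 for Trpc5, -0.39 for Plxdc2, -0.14 for Pde1a and 0.000 for Tpbg. These values are descriptions over arrays that share 1 normalisation. The genes most like and most opposed to Upb1 were picked from 11963 by correlation over these same arrays, and the members were not. Their correlations within a genotype are part of that choice, so they cannot be set against those of the members.

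Genes related to pyrimidine and beta-alanine metabolism, by pathway or by protein family, came from 8 lists of 71 genes, of which 60 were tested. Of these, 5 rose and 12 fell (28.3%, against 19.6% of all genes), with a median difference of -0.016 against -0.017 over all genes. After centring the split was 9 higher and 9 lower, and over all genes it was 1677 and 939. The count was 7 of 60 when the mean level of the cortical neuron markers entered the fit as a covariate, where the count over all genes was 960. Those 7 were Nt5e, Dck, Dctd, Abat, Gad2 and Dpysl5, and Ctps (-0.24, adjusted p = 0.0433), which did not pass without the covariate (-0.14, adjusted p = 0.0658). It was 8 of 60 with the oligodendrocyte marker level, where it was 1139 over all genes: Nt5e, Dck, Abat, Gad1, Gad2, Hibch, Btd and Crmp1. The calls of Cmpk2 and Slc28a1 below were thus lost with either covariate (adjusted p 0.0533 to 0.109). Their differences stayed about as large, -0.24 and -0.22 for Cmpk2 and 0.27 and 0.23 for Slc28a1, with larger SEs of 0.066 to 0.095. The largest of the differences was that of a single gene, Nt5e, from the list of nucleotidases.

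**Figure D3:**
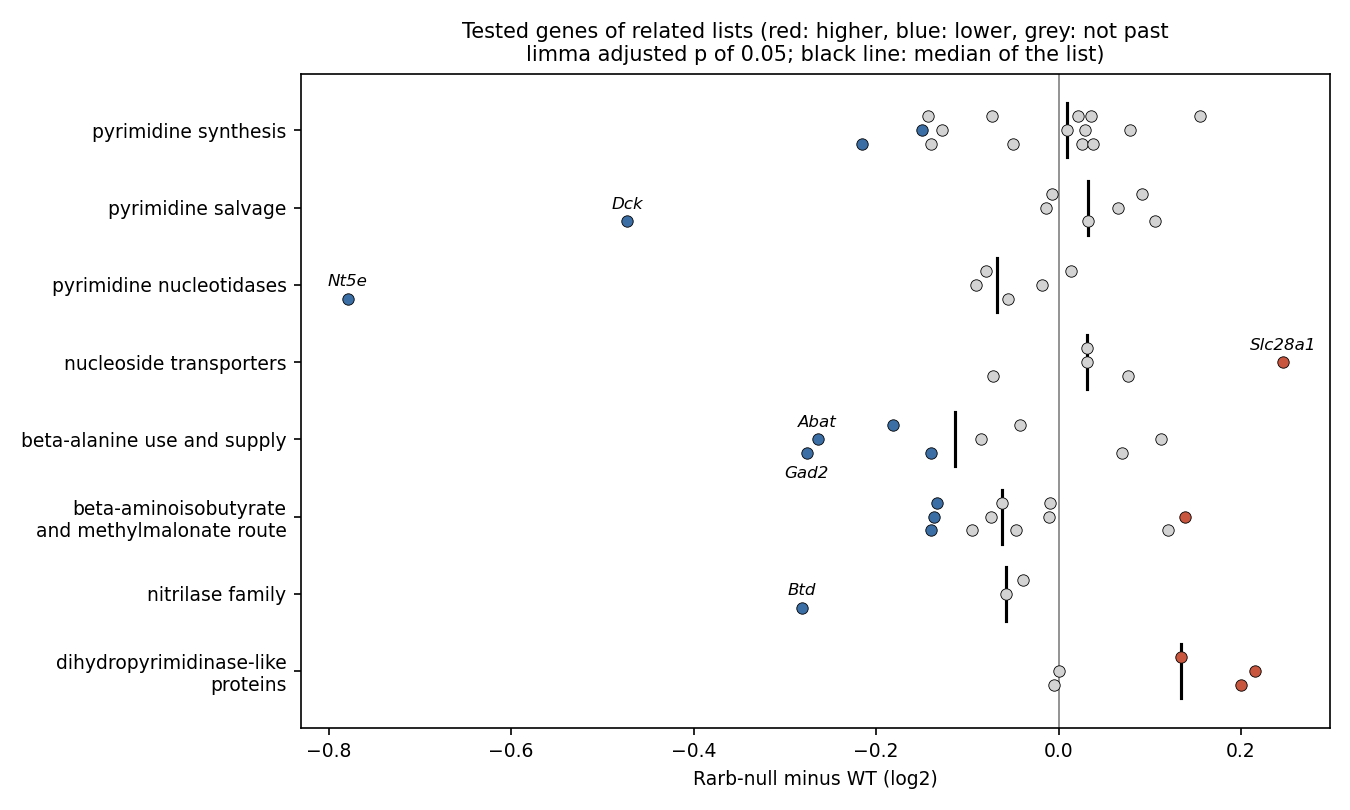
Difference in log2 expression, Rarb-null minus WT, of the 60 tested genes in 8 related lists, a point for each gene and a black line for the median of each list; red and blue points passed a limma adjusted p of 0.05 as higher and lower. Nt5e at -0.78 and Dck at -0.47 lie farthest left, and the red points of the dihydropyrimidinase-like proteins lie to the right of 0.

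Nt5e, the cell-surface nucleotidase CD73, fell by 0.78 (SE 0.039; limma, Benjamini-Hochberg adjusted p = 2.72e-08). WT arrays ran from 9.01 to 9.19 and Rarb-null arrays from 8.25 to 8.35, with no overlap. The 5 other nucleotidases did not pass. The list as a whole had a median of -0.067.

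In salvage, Dck, the kinase that recovers deoxycytidine, fell by 0.47 (SE 0.063; adjusted p = 1.9e-04). It ran from 8.14 to 8.31 in WT arrays, and the null arrays read 7.81, 7.60, 7.75, 7.70 and 8.03, with Rarb-null replicate 5 nearest to WT. The 6 remaining salvage genes did not pass. With arrays centred, the mitochondrial thymidine kinase gene Tk2 (0.13) and the uridine-cytidine kinase gene Uck1 (0.10) also passed, both as higher, and without Rarb-null replicate 1 so did Tk1 (0.17).

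Of 15 tested genes of pyrimidine synthesis 2 fell (13.3%, against 12% of all genes): Cmpk2, a mitochondrial nucleoside monophosphate kinase (-0.21, SE 0.050; adjusted p = 0.0101), and Dctd, deoxycytidylate deaminase (-0.15, SE 0.037; adjusted p = 0.0141). The list had a median of 0.009. With the oligodendrocyte marker covariate 0 of the 15 passed in limma and 4 had an unadjusted p under 0.05, with Dctd at -0.16 (adjusted p = 0.0618). Without a covariate, 6 of the 15 had an unadjusted p under 0.05 in limma, and 4220 of all 11963 genes did. With the covariate, that count over all genes is not given here. Cad (0.03) and Dhodh (0.03) did not pass. Of 5 tested nucleoside transporters, Slc28a1, a concentrative pyrimidine nucleoside carrier, rose by 0.25 (SE 0.063; adjusted p = 0.0159). Its WT mean of 6.94 was below the filter on dim genes and its null mean of 7.19 above it, so it entered the test through the group in which it was higher.

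Of 8 tested genes of beta-alanine use and supply, 4 fell and 0 rose, where 12% of all genes were lower: Gad2 (-0.28, SE 0.031; adjusted p = 5.26e-05), Abat (-0.26, SE 0.032; adjusted p = 9.72e-05), Gad1 (-0.18, SE 0.034; adjusted p = 0.00273) and Slc6a6 (-0.14, SE 0.037; adjusted p = 0.0183). The same 4 had an unadjusted p under 0.05 in limma, and 4220 of all 11963 genes did. Abat encodes the transaminase that breaks down beta-alanine and GABA alike, and Slc6a6 carries taurine and beta-alanine into cells. Gad1 and Gad2 make GABA, the transmitter of striatal projection neurons. The count thus takes in genes of GABA and is not one of beta-alanine genes alone. Abat ran from 12.33 to 12.42 in WT arrays and from 12.05 to 12.19 in Rarb-null arrays, with no overlap. Slc6a6, named after its value was seen, did not pass with arrays centred (-0.10, adjusted p = 0.114). With the cortical marker covariate, 2 of the 4 passed, Abat and Gad2. Projection neuron markers were lower in the same arrays, 8 of 12, and their part in these falls was not tested. The genes around carnosine did not pass: Carns1, which makes it, differed by -0.04 and Cndp2, which cleaves it, by -0.09.

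On the route from beta-aminoisobutyrate and methylmalonate semialdehyde, 3 of 11 genes fell and 1 rose (36.4%, against 19.6% of all genes). After centring 1 fell (Hibch, -0.10) and 2 rose (Mmab, 0.18, and Acadsb, 0.16), and the call of Hibadh was lost (-0.09, adjusted p = 0.0658). Before centring, Hibch (-0.14, SE 0.037; adjusted p = 0.0195) and Hibadh (-0.13, SE 0.032; adjusted p = 0.0132), which handle hydroxyisobutyrate in valine breakdown and feed the enzyme made by Aldh6a1, were lower in all null arrays than in any WT array. Mmab (0.14, adjusted p = 0.0345) and Mmaa (-0.14, adjusted p = 0.0446), both of cobalamin metabolism, lay near the threshold, and their calls were lost under 12 of 22 and 17 of 21 other settings. The list's count was 2 without WT replicate 4 or 6, or without Rarb-null replicate 3, 4 or 5. It was also 2 with no filter and with the filter at the 60th percentile, and 5 with quantile normalisation repeated. It was 1 with the oligodendrocyte covariate and 1 with the 3 arrays of extreme cortical marker level left out. With the cortical marker covariate it was 0, where 4 had an unadjusted p under 0.05. That count over all genes is not given here.

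Upb1 belongs to the nitrilase family of amide-cleaving enzymes. Of 3 other members tested, Btd, biotinidase, fell by 0.28 (SE 0.064, adjusted p = 0.00921), whereas Nit1 (-0.06) and Nit2 (-0.04) did not pass. Among all genes tested, 12% were lower and 7.56% higher. Dpys has 5 relatives, the dihydropyrimidinase-like or collapsin response mediator proteins, which are cytoskeletal regulators of neurons and not known for breaking down pyrimidines. Of these, Crmp1 (0.21, SE 0.035; adjusted p = 0.00106), Dpysl5 (0.13, SE 0.032; adjusted p = 0.0107) and Dpysl3 (0.20, SE 0.055; adjusted p = 0.0231) rose. That is 60% of the 5 relatives, where 7.56% of all genes were higher. Dpysl2 (-0.005) and Dpysl4 (0.001) did not pass. The call of Dpysl3 was lost without Rarb-null replicate 2 (0.20, adjusted p = 0.0507), and its difference was 0.09 (adjusted p = 0.481) with the cortical marker covariate. Crmp1 was then 0.16 (adjusted p = 0.0723) and Dpysl5 0.17 (adjusted p = 0.0461). Cortical neuron markers were higher in the same null arrays, 4 of 7. With the oligodendrocyte covariate Crmp1 was the 1 of the 3 that passed.

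Genes next to Upb1 on chromosome 10 were read beside it. Because Upb1 was chosen for its strong fall, smaller differences in its neighbours were likely from the outset and are descriptions. Of the 6 protein-coding genes on each side in the order of the RefSeq table, 10 had values and 8 were tested; Adora2a and Ggt1 are not analysed here. Specc1l, the nearest measured gene on one side, differed by -0.08 (SE 0.036; adjusted p = 0.116), and Gucd1, on the other side, by -0.04 (SE 0.034; adjusted p = 0.421). Gnaz (0.06) and Snrpd3 (-0.09) did not pass, and Rsph14 (0.18) and Ggt5 (0.01) were below the filter. The 2 that fell were Susd2 (-0.25, SE 0.045; adjusted p = 0.00182) and Bcr (-0.12, SE 0.032; adjusted p = 0.0239), and Rab36 rose (0.14, SE 0.038; adjusted p = 0.0246). Among all genes tested, 12% were lower and 7.56% higher. The 10 neighbours with values ran from -0.25 to 0.18, against -1.24 for Upb1. Lrrc75b (0.11, adjusted p = 0.104) passed without Rarb-null replicate 1 (0.15, adjusted p = 0.0315). The call of Bcr was lost when WT replicate 4, Rarb-null replicate 2 or Rarb-null replicate 5 was left out (adjusted p 0.0534 to 0.0559). That of Rab36 was lost when WT replicate 1 (adjusted p = 0.0509) or Rarb-null replicate 3 (0.0557) was. The call of Bcr was also lost with the mean of its probe sets (-0.06, adjusted p = 0.274), the cortical marker covariate (-0.07, adjusted p = 0.384), the 3 arrays of extreme cortical level left out (-0.08, adjusted p = 0.178) and centring (-0.08, adjusted p = 0.13). That of Rab36 was lost with the cortical (0.17, adjusted p = 0.0796) and the oligodendrocyte covariate (0.12, adjusted p = 0.153).

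**Figure D4:**
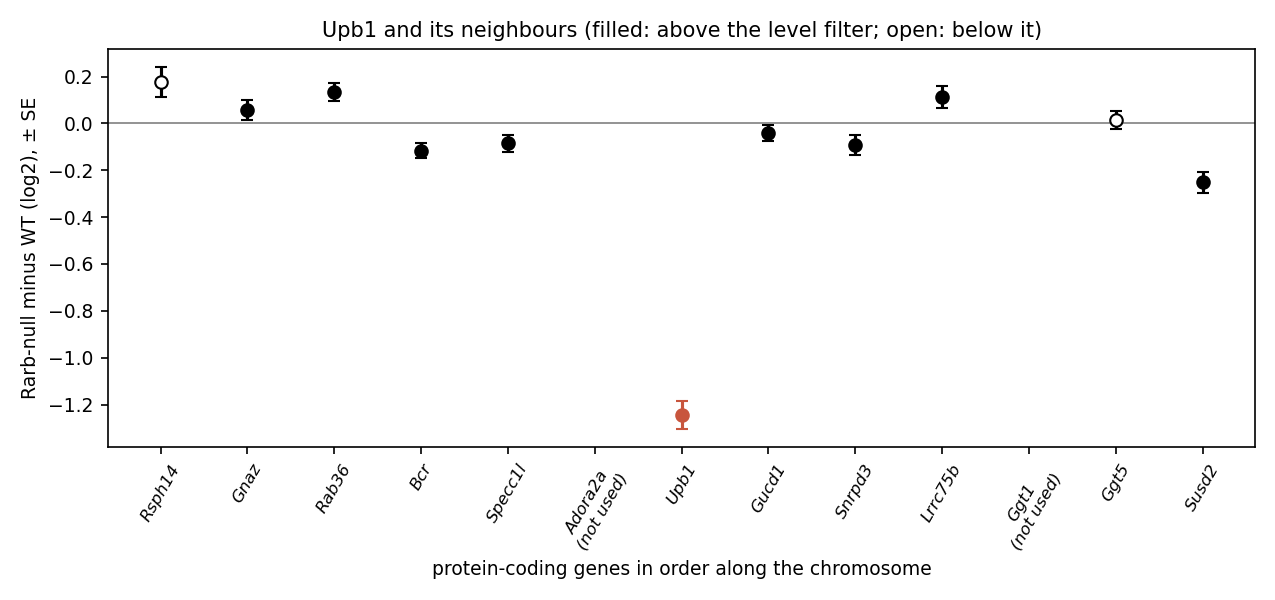
Difference in log2 expression, Rarb-null minus WT, with the SE of the limma fit, for Upb1 (red) and the protein-coding genes in order on each side; open circles are below the filter on dim genes. Upb1, chosen for its fall, lies at -1.24 and its 10 measured neighbours between -0.25 and 0.18.

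Markers of the tissue and of other cells moved with genotype too. Striatal projection neuron markers were bright in both groups (list means of 12.02 to 12.09 in WT and 11.78 to 11.90 in Rarb-null arrays), and 8 of 12 tested fell. Of the 6 measured markers of the Drd2 class of these neurons, 4 fell. Drd2, Gpr6 and Penk are on both lists, so these counts are not separate. Cortical neuron markers rose in 4 of 7, with list means of 7.94 to 8.64 in WT and 8.60 to 9.19 in Rarb-null arrays. Of 9 astrocyte markers 5 fell and 1 rose, and of 9 oligodendrocyte markers 3 fell. Among all genes tested, 12% were lower and 7.56% higher in Rarb-null arrays. Among 8 microglial and 9 endothelial and mural markers limma called 0, with 3 and 1 at an unadjusted p under 0.05. Of all 11963 genes, 4220 had an unadjusted p under 0.05. Of 7 measured hepatocyte genes 6 were below the filter and Apoa1 did not pass (0.08, adjusted p = 0.246; 0 of 1 at an unadjusted p under 0.05). In the limma fit without a filter, where 12.6% of all genes passed, Hpd (0.25, adjusted p = 0.0126) and Ttr (0.25, adjusted p = 0.038) were higher. The other dim hepatocyte genes did not pass there. With the cortical marker covariate Upb1 differed by -1.18, and with the oligodendrocyte one by -1.31, and Dpyd by 0.47 and 0.44. Without the 3 arrays of most extreme cortical marker level they were -1.17 and 0.43. The part of the astrocyte and projection neuron markers in these differences was not tested.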

How the data were processed

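Expression in nucleus accumbens punches of 11 mice was read from the authors' deposited values, log2 levels that the labels and the submitters' processing notes attribute to RMA; base 2 was inferred from their range. RMA compresses the folds of dim genes. Software version and annotation are not given in the sources used here, nor is background signal, so whether dim genes exceed background is unknown.

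Of 35556 probe sets, 21789 had 1 gene symbol, updated through Entrez identifiers to RefSeq GRCm38.p6 for 21698; 1621 had several and 12146 had none. The brightest probe set stood for a gene. The test covered 11963 of 19938 genes, those whose mean exceeded the 40th percentile (6.99). It used limma 3.58.1 in R 4.3.3 (lmFit, eBayes), with Benjamini-Hochberg adjustment over all genes tested and a threshold of 0.05; the number of arrays limits the precision. On simulated data for these 11963 genes, it called 82% of differences of 0.25, 100% of those of 0.5 and 1 and 98% of those of 1.25, with 11 false calls among 11763 unchanged genes. The simulated noise was normal and independent between genes, with 50 genes changed at each size. In the data 19.6% of genes were called, so these rates need not hold there. Figures used matplotlib 3.10.9.

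The members and lists were chosen with earlier results of these data known. Named genes were the members, the 6 neighbours on each side, up to 3 called genes a list by smallest p, and the 6 most and 4 least correlated with Upb1, and Rarb. Slc6a6, Mmaa, Tk1, Tk2, Uck1, Ctps, Acadsb, Cad, Dhodh, Carns1, Cndp2, Nit1, Nit2, Dpysl2, Dpysl4, Apoa1, Hpd and Ttr were added after their values were seen. Alternatives were other filters, scalings, variance models, array weights, the mean of probe sets, a replicate block, marker covariates and leaving out each array. Leaving out 3 arrays of extreme cortical marker level was chosen after seeing the data.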

Additional observations from a re-analysis of the deposited data

Results flagged for a closer look

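In 6 of 84 groups of arrays examined, 1 array stood apart from the rest by the gap test of Dixon, where chance gives about 1 in 20. Cda read 7.19 in Rarb-null replicate 1 and 7.38 to 7.44 in the other null arrays. Crmp1 read 10.90 in Rarb-null replicate 5 and 10.75 to 10.77 in the others. Gad1 was lowest in WT replicate 6 at 11.90, against 11.99 to 12.03. Rab36 read 9.57 in Rarb-null replicate 3 and 9.39 to 9.42 in the others. Snrpd3, which did not pass the test, was highest in WT replicate 1 at 11.65, against 11.46 to 11.52. Pde1a was lowest in WT replicate 5 at 10.25, against 10.37 to 10.40 elsewhere in WT.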

How the results depend on the processing

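Upb1 differed by -1.31 to -1.17 under 21 other settings and by -1.29 to -1.20 when each array was left out, and it is below the filter at the 60th percentile. The calls over all genes (2341) numbered 960 with the cortical marker covariate, 1139 with the oligodendrocyte one, 1342 with the 3 arrays of most extreme cortical level left out, and 1548 to 2582 with 1 array left out, the fewest without Rarb-null replicate 3. The share of higher calls, 38.7%, was 64.1% with arrays centred and 51% with no filter. Related genes went from 17 calls to 7 and 8 with those covariates, and neighbours from 3 to 1 with the cortical one. The other members went from 1 call to 0 with the filter at the 60th percentile, where Upp2, Cda and Dpyd are not tested and Aldh6a1 had an unadjusted p under 0.05, and to between 1 and 2 with an array left out. The causes were not tested, apart from fewer genes tested under the filter. Same-numbered arrays deviated together with correlations of 0.06 to 0.43, and 2 of 5 Rarb-null arrays correlated best with the WT array of their number, so the numbers were not taken as pairs. With the replicate block Upb1 differed by -1.29, the calls were 2872 over all genes, 1 among the other members, 18 among the related genes and 3 among the neighbours.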
